A study of Rattus norvegicus with 9 samples.

Results

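The transcripts described here encode 6 secreted factors with trophic actions on sensory neurons: the neurotrophins Bdnf and Ntf3, the glial cell line-derived neurotrophic factor (GDNF) family ligands Gdnf, Artn and Nrtn, and the neurotrophin-inducible secretory protein Vgf. They were selected by gene symbol, with earlier results of these data known, and they are 6 of the 20413 genes in the expression table. Their gene identifiers in the table are 24225 (Bdnf), 81737 (Ntf3), 25453 (Gdnf), 362572 (Artn), 84423 (Nrtn) and 29461 (Vgf). All 6 had a row, and all 6 passed the filter on low values, a mean of at least 0.1 FPKM over the 9 libraries.

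RNA was sequenced from the ipsilateral L4–6 dorsal root ganglia (DRGs), the clusters of sensory neuron cell bodies that serve the hind paw, of male Sprague Dawley rats aged 8 to 10 weeks at purchase. There were 3 groups of 3 libraries, with 3 rats per group by the study's methods. CPIP rats (chronic post-ischemic pain) had blood flow to the hind paw stopped by a tight O-ring for 3 h under anesthesia and then restored. Sham rats, labelled as controls in the sample records, went through the anesthesia too, with an opened ring that left the paw perfused. CPIP+EA rats had the same ischemia and then electroacupuncture (EA) at 100 Hz for 30 min daily for 10 days at the acupoints ST36 and BL60 of both hind limbs. DRGs of all rats were taken on day 10 under sodium pentobarbital after a saline perfusion. The injury lay in the paw and the measured tissue was the ganglion, so ligands made in the skin, muscle or nerve of the paw were not measured. No group had EA without ischemia, and only males were used.

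Neurotrophins act through Trk receptor tyrosine kinases and the shared receptor p75 (Ngfr), and each Trk receptor marks a class of sensory neuron. Brain-derived neurotrophic factor (Bdnf) is unusual among them in DRGs because nociceptive neurons make it themselves and carry it to their central terminals, where it acts on spinal neurons. GDNF family ligands come mostly from glia and target tissues and bind a Gfra co-receptor that pairs with the kinase Ret. Vgf is induced by neurotrophins and is cut in dense-core vesicles into peptides, some of which act on pain pathways.

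Of the 6 transcripts, Vgf and Bdnf were higher in the ganglia of CPIP and of CPIP+EA rats than in Sham ganglia, with no overlap between libraries. As mean ± SD of the 3 libraries of a group, Vgf was at 13.6 ± 2.17 FPKM for Sham, 35.2 ± 4.48 for CPIP and 35.0 ± 5.84 for CPIP+EA, where FPKM is the number of fragments scaled to transcript length and library size. Bdnf was at 5.84 ± 0.277, 8.57 ± 0.593 and 8.89 ± 0.828 FPKM in the same order (SD, n = 3 each). The other 4 transcripts, Nrtn, Artn, Ntf3 and Gdnf, passed no test in any comparison and had group means of at most 1.52 FPKM. None of the 6 passed the test between CPIP+EA and CPIP. In bulk tissue fewer cells of a type and less RNA per cell cannot be told apart.

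A gene was called changed at an adjusted p under 0.01 with at least a 1.5-fold change on the log2(FPKM + 0.5) scale. Of the 6 transcripts, 1 was called in CPIP against Sham, where 0.355% of the 17187 genes tested were called, and 2 of 6 had an adjusted p under 0.05, against 0.71% of genes. In CPIP+EA against Sham 1 of 6 was called, against 0.483% of genes, and 2 of 6 had an adjusted p under 0.05, against 1.31%. Higher libraries without overlap were found for 2 of 6 in CPIP against Sham, where 7.98% of genes did so, and for 2 of 6 in CPIP+EA against Sham, where 8.87% did. None of the 6 was lower without overlap, against 7.9% and 7.32% of genes. In CPIP+EA against CPIP limma called 0 of 6 members and 0% of genes, and at an adjusted p under 0.05 it also passed 0% of genes. At an unadjusted p under 0.05 it passed 738 genes, none of them a member. No member's libraries were separated there either, where 4.84% of genes were higher and 3.4% lower without overlap. The median log2 difference of the 6 was 0.09 in CPIP against Sham, beside -0.01 over all genes tested.

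The upstream sequences of 3 members are shown as a description of their letters. Vgf carries letters known as binding motifs of signal-dependent factors, and Bdnf, Gdnf and Artn, whose window is not shown, carry part of them. A link between these letters and the expression values was not tested. The sequences are the 250 bases before the annotated transcription start, 5′ to 3′, from RefSeq on the rat build GRCr8. The build behind the expression table is not given in the sources used here. Capitals mark matches, on either strand, to TGACGTCA (the full cAMP response element), TGACG (its core, which lies inside it), CACGTG (an E-box), TGANTCA (an AP-1 element) and TATAAA (the TATA box). The Vgf window is chr12:25277021-25277270 on the minus strand, the Bdnf window is chr3:116637608-116637857 on the plus strand, and the Gdnf window is chr2:58621077-58621326 on the plus strand.
Vgf: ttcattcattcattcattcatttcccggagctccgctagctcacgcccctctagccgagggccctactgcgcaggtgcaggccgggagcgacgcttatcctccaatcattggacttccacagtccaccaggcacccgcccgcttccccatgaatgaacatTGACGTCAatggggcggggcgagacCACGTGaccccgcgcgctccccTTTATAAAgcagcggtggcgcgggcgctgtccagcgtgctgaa
Bdnf: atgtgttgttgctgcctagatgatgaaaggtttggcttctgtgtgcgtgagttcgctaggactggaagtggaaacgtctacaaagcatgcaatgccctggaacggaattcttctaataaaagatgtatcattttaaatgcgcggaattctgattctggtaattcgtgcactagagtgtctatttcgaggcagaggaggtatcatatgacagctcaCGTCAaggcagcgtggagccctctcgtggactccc
Gdnf: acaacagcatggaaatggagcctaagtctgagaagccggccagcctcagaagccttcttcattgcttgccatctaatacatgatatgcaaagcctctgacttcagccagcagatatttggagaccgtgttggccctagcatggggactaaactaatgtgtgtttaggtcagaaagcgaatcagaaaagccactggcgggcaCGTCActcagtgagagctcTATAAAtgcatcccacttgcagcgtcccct

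In Vgf the full cAMP response element spans bases -90 to -83 from the start, the E-box -65 to -60, and the TATA box, matched on both strands, -43 to -36. The full element is present in 1.59% of the 33469 upstream windows of this length in the RefSeq table, the E-box in 5.59%, the TATA box in 12.9%, the AP-1 element in 6.34% and the core TGACG in 18.2%. Bdnf has 6 annotated starts, and the window shown is the only one of them with the core, on the minus strand at -35 to -31. Counted per gene over all its windows, the core is present in 20.0% of 27457 genes. Of its other windows, 1 holds an AP-1 match at -152 to -146 and 1 a TATA match at -250 to -245. Gdnf holds the core at -49 to -45 and a TATA box at -30 to -25, and the Artn window holds the core at -121 to -117. No match to these letters was found in the Nrtn window or in the 3 Ntf3 windows. All 6 members matched the table. The motifs were picked with these sequences in view, a match is a description of letters only, and the gene-level FPKM of Bdnf cannot tell its starts apart.

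Bdnf, the ligand of TrkB, was measured at 6.16, 5.68 and 5.68 FPKM in the Sham libraries, at 8.25, 8.20 and 9.25 in the CPIP libraries and at 9.46, 9.27 and 7.94 in the CPIP+EA libraries. The highest Sham library lay below the lowest library of both other groups, while CPIP and CPIP+EA overlapped. On the log2(FPKM + 0.5) scale Bdnf was 0.51 ± 0.09 (SE) higher with CPIP than in Sham, a 1.43-fold difference with a 95% interval of 1.24 to 1.65 and an adjusted p of 0.0428 by limma. It was 0.56 ± 0.09 higher with CPIP+EA than in Sham, a 1.48-fold difference with an interval of 1.28 to 1.70 and an adjusted p of 0.018 by limma. Being under 1.5-fold on this scale and above 0.01, Bdnf was called in neither comparison and passed only the looser limit of 0.05. The fold limit depended on the pseudocount for CPIP+EA against Sham, where the ratio of mean FPKM was 1.52. With a pseudocount of 0.1 the log2 difference there was 0.595, above 1.5-fold, but the adjusted p of 0.0164 by limma stayed above 0.01. Between CPIP+EA and CPIP the difference was 0.05 ± 0.09, with an interval from -0.16 to 0.25. The looser call of Bdnf rested on the processing: its adjusted p was under 0.05 in 6 of 21 alternatives for CPIP against Sham and in 15 of 21 for CPIP+EA against Sham, and the difference stayed positive in all 21 of both. With libraries left out singly, the first of these adjusted p was 0.0224 without CPIP+EA replicate 3 and 0.0565 to 0.185 without any other, and the second exceeded 0.05 without Sham replicate 2 (0.0878) or 3 (0.0762) or CPIP+EA replicate 1 (0.0610) or 2 (0.0818).

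Ntf3, which encodes neurotrophin-3, the TrkC ligand on which proprioceptive neurons depend, was close to the limit of detection. Its FPKM was 0.18, 0.14 and 0 in Sham, 0.09, 0.23 and 0.23 with CPIP, and 0.14, 0.18 and 0.23 with CPIP+EA. These values are, within 0.005 FPKM, whole multiples of a step between 0.0450 and 0.0462 FPKM, from 0 to 5 steps per library, which is the pattern of a few whole fragments per library. The groups overlapped, and the limma difference was 0.18 ± 0.15 (SE) on the log2 scale for CPIP against Sham, with an interval from -0.17 to 0.52. With a pseudocount of 0.1 it was 0.54 ± 0.44, with an adjusted p of 0.862 by limma. With libraries left out singly it ran from 0.044 to 0.28 at the pseudocount of 0.5. Ntf4, a further TrkB ligand, averaged 0.0367 FPKM over the 9 libraries and was left out by the filter.

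Gdnf, whose product binds Gfra1, had the lowest mean of the 6 transcripts. It was listed at 0.17, 0.27 and 0.09 FPKM in Sham, at 0.05, 0.12 and 0.05 with CPIP and at 0.15, 0.02 and 0.03 with CPIP+EA. The Sham mean was the highest, but a library of each ischemic group lay above the lowest Sham library. The limma difference from Sham was -0.23 ± 0.14 (SE) with CPIP and -0.25 ± 0.14 with CPIP+EA on the log2 scale, with adjusted p of 0.776 and 0.530 by limma. Gdnf passed the filter, at a mean of 0.106 FPKM, only through Sham, since its means of 0.0733 with CPIP and 0.0667 with CPIP+EA lie under 0.1, and it was not tested when Sham replicate 1 or 2 was left out. At this level the pseudocount sets the size: with 0.1 in place of 0.5 the differences were -0.65 ± 0.41 and -0.76 ± 0.41, with adjusted p of 0.785 and 0.507 by limma. Its gene overlaps 1 other gene in the RefSeq annotation, LOC134485851, and the strand setting of the counting is not given in the sources used here.

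Artn encodes artemin, the ligand of Gfra3 on nociceptors. It was measured at 0.76, 0.36 and 0.69 FPKM in Sham, 0.36, 0.39 and 0.53 with CPIP, and 0.41, 0.68 and 0.58 with CPIP+EA. The Sham libraries alone spanned the whole range, and the log2 difference of -0.24 ± 0.17 (SE) for CPIP against Sham had an interval from -0.63 to 0.16. With libraries left out singly that difference ran from -0.41 to -0.13, and with a pseudocount of 0.1 it was -0.38. Nrtn encodes neurturin, the preferred ligand of Gfra2. Its FPKM was 1.22, 1.04 and 2.29 in Sham, 1.51, 1.52 and 1.33 with CPIP, and 0.84, 1.22 and 1.80 with CPIP+EA. Here too the Sham spread covered the CPIP values, and the log2 difference was 0.00 ± 0.25 (SE) with an interval from -0.56 to 0.57. The CPIP+EA minus CPIP differences were 0.19 ± 0.17 (SE) for Artn and -0.16 ± 0.25 for Nrtn. A 1.5-fold fall from Sham is left undecided by the intervals of Nrtn with CPIP+EA and of Artn with CPIP. For Nrtn such a fall from CPIP to CPIP+EA is undecided too.

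Vgf was the most abundant of the 6 and the only one called. It was measured at 15.4, 14.2 and 11.2 FPKM in the Sham libraries, at 30.1, 37.0 and 38.6 in the CPIP libraries and at 41.6, 32.8 and 30.6 in the CPIP+EA libraries. The lowest library of the ischemic groups held 30.1 FPKM and the highest Sham library 15.4, so Sham did not overlap with either group, while CPIP and CPIP+EA did overlap. The log2 difference was 1.35 ± 0.15 (SE) for CPIP against Sham, a 2.54-fold change with a 95% interval of 2.01 to 3.22 and an adjusted p of 0.00374 by limma. For CPIP+EA against Sham it was 1.33 ± 0.15, a 2.52-fold change with an interval of 1.99 to 3.19 and an adjusted p of 0.00330 by limma. Between CPIP+EA and CPIP it was -0.01 ± 0.15, with an interval from -0.36 to 0.33. The summed mean FPKM of the 6 transcripts was 21.8 in Sham, 45.9 with CPIP and 46.0 with CPIP+EA, of which Vgf made up 62.2%, 76.7% and 76.1%. Both comparisons with Sham use the same Sham libraries and so are not independent of each other. Over the 21 alternatives the Vgf difference stayed between 1.22 and 1.45 for CPIP against Sham, and its adjusted p between 0.000376 and 0.0258, so that the call was kept in 13 of 21; it was lost without any 1 of the Sham libraries (0.0105 to 0.0178), without CPIP replicate 2 (0.0258) or 3 (0.0237), without CPIP+EA replicate 2 (0.0105), with no filter (0.0133) and with the replicate number as a block (0.0199). For CPIP+EA against Sham it stayed between 1.20 and 1.43, with an adjusted p between 0.000393 and 0.0180, and the call was kept in 14 of 21; it was lost without Sham replicate 2 (0.0165) or 3 (0.0120), without CPIP+EA replicate 1 (0.0102) or 2 (0.0180), with no filter (0.0118), with the block (0.0162) and with only the 2 groups in the fit (0.0145).

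**Figure D1:**
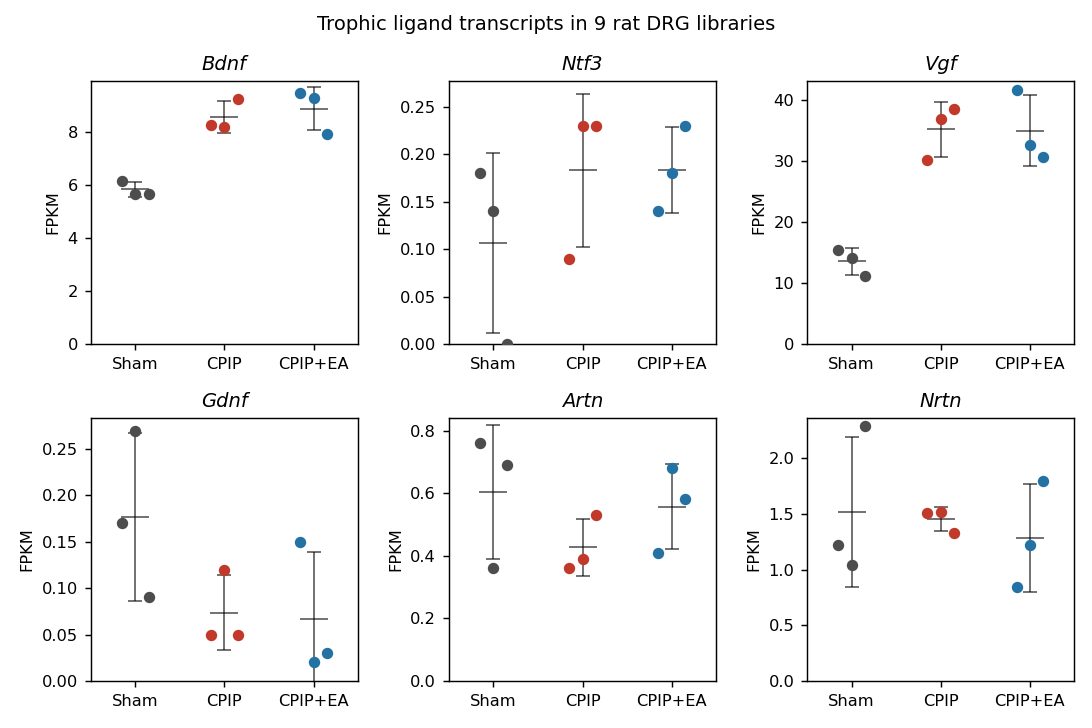
FPKM of each transcript (y axis, linear, separate scale per panel) in the 3 libraries of Sham, CPIP and CPIP+EA; dots are libraries, and the bars show the mean with its SD, cut at 0. Vgf and Bdnf show every CPIP and CPIP+EA library above every Sham library, while the groups overlap in Ntf3, Gdnf, Artn and Nrtn.

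**Figure D2:**
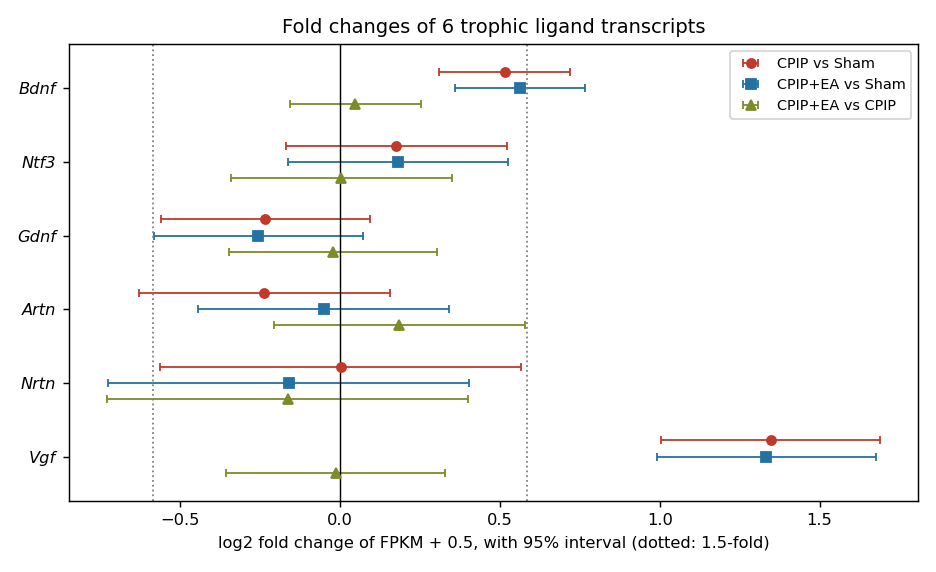
Log2 fold change of FPKM + 0.5 (x axis) of each transcript in the 3 comparisons; points are limma estimates, bars their 95% intervals, and dotted lines mark a 1.5-fold change. Vgf lies at 1.35 and 1.33 against Sham and at -0.01 between CPIP+EA and CPIP, and the intervals of Ntf3, Gdnf, Artn and Nrtn cross 0 in every comparison.

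In order of mean FPKM over the 9 libraries the members were Vgf at 27.9, Bdnf at 7.77, Nrtn at 1.42, Artn at 0.529, Ntf3 at 0.158 and Gdnf at 0.106. Vgf and Bdnf were separated from each other and from the rest in every library. The ranges of Nrtn (0.84 to 2.29 FPKM) and Artn (0.36 to 0.76) did not meet, whereas those of Ntf3 (0 to 0.23) and Gdnf (0.02 to 0.27) overlapped. Vgf exceeded Bdnf by 2.33 times in Sham, 4.11 times with CPIP and 3.94 times with CPIP+EA, as ratios of mean FPKM.

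The ganglion held a full set of neuronal transcripts: all 10 pan-neuronal markers were above 0, and their summed FPKM spanned 11041 to 13307 in Sham, 11540 to 12157 with CPIP and 11002 to 13270 with CPIP+EA. Summed FPKM per library was 445647 to 482940, and 18279 to 18456 genes were above 0. Satellite glia markers (6 genes, all above 0) summed to 3829 to 3965 FPKM in Sham, 4018 to 4333 with CPIP and 4239 to 4422 with CPIP+EA, without overlap with Sham; 0 of the 6 were called by limma against Sham (at an unadjusted p under 0.05, 0 for CPIP and 1 for CPIP+EA, which was lower than in Sham), and their part in the rise of Vgf was not tested. Skeletal muscle markers (6 genes) summed to 9.78 to 17.4 FPKM in Sham, 7.69 to 146 with CPIP and 12.95 to 44.0 with CPIP+EA, and 4 of the 6 ischemic libraries lay above the highest Sham library. Their median log2 difference from Sham was 1.22 for CPIP and 0.96 for CPIP+EA, with 0 of 6 called and 0 of 6 at an unadjusted p under 0.05 by limma. Fibroblast markers (5 genes) summed to 795 to 1078 FPKM in Sham, 679 to 890 with CPIP and 445 to 912 with CPIP+EA. The ranges overlapped and 0 of the 5 were called by limma. At an unadjusted p under 0.05, 1 of 5 was lower for CPIP against Sham (8.66% of all genes passed in either direction) and 4 of 5 for CPIP+EA against Sham (12.2%), with medians of -0.22 and -0.55. Of 7 Schwann cell markers, 6 had a positive estimate for CPIP against Sham (median 0.09) and 0 for CPIP+EA against Sham (median -0.29), with 0 called and 0 at an unadjusted p under 0.05 by limma in both. For CPIP+EA against CPIP all 7 estimates were negative (median -0.48), with 0 called and 1 at an unadjusted p under 0.05. Of 7 nociceptor markers, 6 had a negative estimate in both comparisons with Sham (medians -0.23 and -0.24). By limma 0 were called and 1 and 2 had an unadjusted p under 0.05, and 3 were lower without overlap for CPIP and 1 for CPIP+EA. Over all genes, 8.66% and 12.2% had an unadjusted p under 0.05, and 7.9% and 7.32% were lower without overlap. Erythroid markers (5 genes) summed to 1078 to 3312 FPKM in Sham, 563 to 2154 with CPIP and 626 to 5011 with CPIP+EA, with median differences from Sham of -0.69 and 0.02 and 0 called or at an unadjusted p under 0.05 by limma. Neutrophil markers (6 genes) summed to 47.6 to 143 FPKM in Sham, 31.6 to 236 with CPIP and 62.0 to 589.8 with CPIP+EA, where the next library held 160. Their median differences from Sham were 0.08 and 0.87, with 0 called and 0 at an unadjusted p under 0.05 by limma. The part of these lists in the Vgf and Bdnf results was not tested.

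Set against the summed pan-neuronal markers of each library, Vgf and Bdnf of Sham again lay below the other groups without overlap. The markers themselves did not all stay level: for CPIP against Sham, 3 of the 10 were higher and 4 lower without overlap, with log2 differences from -0.34 to 0.41, and 0 were called by limma and 4 had an unadjusted p under 0.05. Over all genes tested in that comparison, 7.98% were higher and 7.9% lower without overlap, and 8.66% had an unadjusted p under 0.05. For CPIP+EA against Sham, 3 of the 10 were higher and 2 lower without overlap, with log2 differences from -0.55 to 0.46. By limma 0 were called there, and 3 higher and 1 lower had an unadjusted p under 0.05. The shares of all genes were 8.87% higher and 7.32% lower without overlap, and 12.2% at an unadjusted p under 0.05. Per 1000 FPKM of summed pan-neuronal markers, Vgf stood at 1.16, 1.19 and 1.01 FPKM in Sham, at 2.57, 3.20 and 3.17 with CPIP, and at 3.14, 2.61 and 2.78 with CPIP+EA. Bdnf stood at 0.463, 0.477 and 0.514 in Sham, at 0.702, 0.711 and 0.761 with CPIP, and at 0.713, 0.737 and 0.722 with CPIP+EA. With each library centred on the pan-neuronal markers, the Vgf difference was 1.35 ± 0.11 (SE) for CPIP against Sham with an adjusted p of 0.000376 by limma, and 1.32 ± 0.11 for CPIP+EA against Sham with an adjusted p of 0.000393. For Bdnf the same centring gave 0.52 ± 0.10 and 0.55 ± 0.10, with adjusted p of 0.0634 and 0.0344 by limma.

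Ngfr averaged 159 FPKM over the 9 libraries, Ntrk2 (TrkB) 47.7 and Ntrk3 (TrkC) 9.46. Of 11 transcripts of neurotrophin receptors, sorting receptors and adaptors, 0 were called in CPIP against Sham and 0 in CPIP+EA against Sham by limma, and 3 in each had an unadjusted p under 0.05. Over all genes tested, 8.66% and 12.2% had an unadjusted p under 0.05 in these 2 comparisons. Ntrk2 differed by -0.07 ± 0.08 (SE) between CPIP and Sham, with an interval from -0.25 to 0.11. Among GDNF family receptors, Ret averaged 109 FPKM, Gfra1 70.7, Gfra2 24.4, Gfra3 21.0, Gfra4 0.638 and Gfral 0.0278. Gfra4 and Gfral bind persephin and GDF15, whose genes Pspn and Gdf15 averaged 1.29 and 0.157 FPKM. Of 7 tested in this list, 1 was called in each comparison with Sham, and it was Gfra1. Gfra4 was lower than in Sham without overlap in both ischemic groups, with log2 differences of -0.41 ± 0.13 (SE) and -0.21 ± 0.13 and adjusted p of 0.324 and 0.565 by limma.

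Gfra1, the co-receptor of Gdnf, was measured at 52.1, 47.3 and 38.6 FPKM in Sham, at 81.3, 84.6 and 83.9 with CPIP and at 84.7, 86.6 and 76.9 with CPIP+EA. Its libraries were higher in both ischemic groups than in Sham without overlap, by 0.86 ± 0.10 (SE) and 0.85 ± 0.10 on the log2 scale, with adjusted p of 0.00470 and 0.00416 by limma. Its ligand Gdnf was at or under 0.27 FPKM in every library. Gfra3, the artemin co-receptor, averaged 16.4 FPKM in Sham, 22.7 with CPIP and 23.9 with CPIP+EA. Its log2 differences from Sham were 0.46 ± 0.09 (SE) and 0.53 ± 0.09, with adjusted p of 0.0818 and 0.0318 by limma, so it was not called. The Gfra3 libraries of both ischemic groups nevertheless lay above Sham without overlap. Gfra2, the neurturin co-receptor, gave -0.06 ± 0.10 and -0.30 ± 0.10, with adjusted p of 0.961 and 0.270 by limma, and its CPIP+EA libraries lay below Sham without overlap. Between CPIP+EA and CPIP it gave -0.25 ± 0.10, with an adjusted p of 0.996 by limma.

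**Figure D3:**
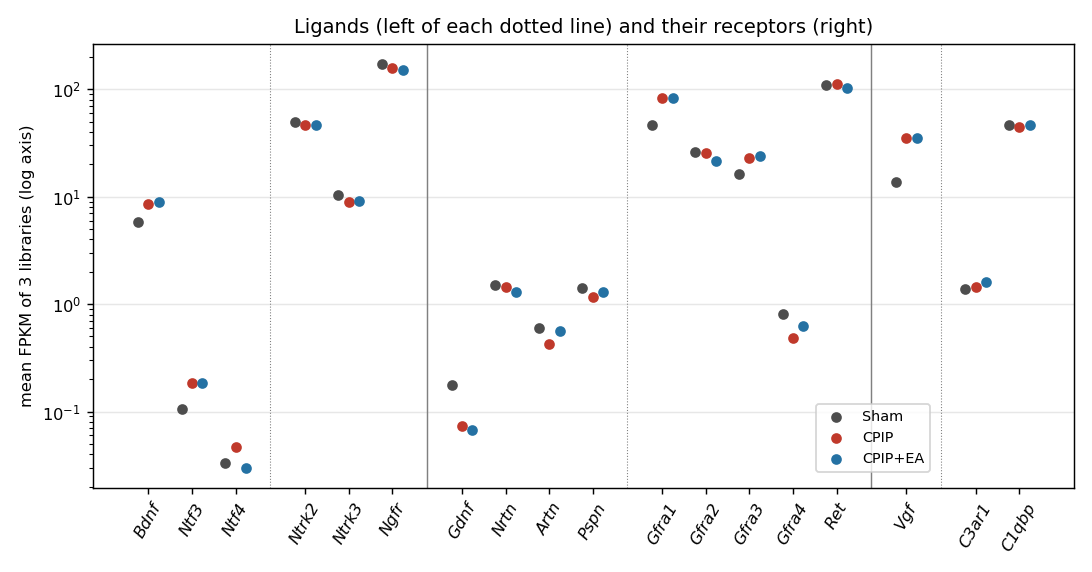
Mean FPKM of 3 libraries (y axis, log scale) of 3 neurotrophins, the GDNF family ligands and Vgf, each set beside receptors it binds, with 1 dot per group. Gdnf, Ntf3 and Ntf4 lie below 1 FPKM while Ngfr and Ret lie near or above 100. The Sham mean lies apart from the other groups in Vgf, Bdnf and Gfra1, and also in Gdnf, Ntf3, Gfra3 and Gfra4. The dots do not show whether libraries overlap, as they do in Gdnf and Ntf3.

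Vgf belongs to the extended granin family, cargo proteins of dense-core vesicles, and it was the one transcript of that list to pass the test. Of 10 granin and dense-core vesicle transcripts, 1 was called in each comparison with Sham, Vgf itself. The median log2 difference of the 10 was -0.12 for CPIP against Sham and -0.07 for CPIP+EA against Sham. Chromogranin A (Chga) gave -0.24 ± 0.12 (SE) and -0.28 ± 0.12, and secretogranin 5 (Scg5), a chaperone of prohormone convertase 2, gave -0.20 ± 0.06 and -0.10 ± 0.06. Scg2 gave -0.16 ± 0.11 and -0.15 ± 0.11. Receptors reported for Vgf-derived peptides, C3ar1 and C1qbp, averaged 1.49 and 45.6 FPKM, with differences of 0.02 ± 0.19 (SE) and -0.07 ± 0.08 for CPIP against Sham.

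**Figure D4:**
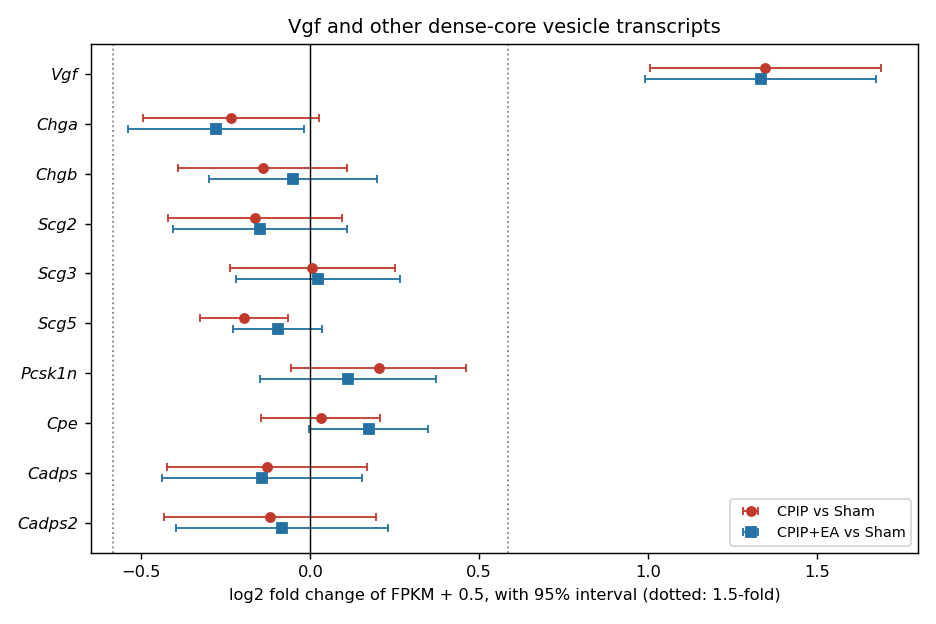
Log2 fold change of FPKM + 0.5 (x axis) of Vgf and 9 other dense-core vesicle transcripts with CPIP and CPIP+EA against Sham; points are limma estimates, bars their 95% intervals, and dotted lines mark a 1.5-fold change. Vgf lies at 1.35 and 1.33, and the other 9 lie between -0.28 and 0.20.

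Bdnf and Vgf are made as precursors that convertases cut. Pcsk1, a convertase of the regulated secretory pathway, averaged 15 FPKM in Sham, 18.1 with CPIP and 18.1 with CPIP+EA, with log2 differences of 0.25 ± 0.12 (SE) and 0.26 ± 0.12 and adjusted p of 0.625 and 0.422 by limma. Of 13 processing genes tested, 1 was called in each comparison with Sham, the matrix metalloproteinase Mmp3. It was listed at 0, 0.07 and 0.03 FPKM in Sham, 1, 1.04 and 1.31 with CPIP and 0.89, 1.47 and 1.98 with CPIP+EA, so it passed the filter only through the ischemic groups. Plat, tissue plasminogen activator, which generates the plasmin that cuts extracellular proBDNF, gave -0.03 ± 0.10 and 0.12 ± 0.10.

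Of 16 other trophic ligands, 1 was called in CPIP against Sham and 2 in CPIP+EA against Sham. Csf1, a macrophage growth factor that injured sensory neurons release, averaged 6.41 FPKM in Sham, 13.7 with CPIP and 12.6 with CPIP+EA, with log2 differences of 1.04 ± 0.06 (SE) and 0.92 ± 0.06 and adjusted p of 7.13e-05 and 0.000147 by limma. Fgf2, basic fibroblast growth factor, averaged 2.49, 3.98 and 5.38 FPKM, with differences of 0.60 ± 0.14 and 0.99 ± 0.14 and adjusted p of 0.117 and 0.00852 by limma. Cntf, a Schwann cell factor, averaged 62.7, 69.0 and 62.3 FPKM with differences of 0.16 ± 0.33 and -0.10 ± 0.33. Of 22 genes of receptor tyrosine kinase signalling and its feedback, 0 were called by limma in either comparison with Sham, and 2 and 4 had an unadjusted p under 0.05, beside 8.66% and 12.2% of all genes. Of 11 activity- and cAMP-responsive genes tested, 0 were called, 1 had an unadjusted p under 0.05 in each of the 2 comparisons (beside the same 8.66% and 12.2%), and their median log2 difference was -0.13 for CPIP against Sham and -0.08 for CPIP+EA against Sham.

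Likeness to each member was measured across the 9 libraries over genes with a mean of at least 1 FPKM. The transcripts most like Vgf were Sema6a, Syt4 and Smad1, with Pearson r of 0.99, 0.99 and 0.99 on the log2 scale, and 164 of 13913 genes reached 0.9. For Bdnf they were Tubb2b, Flrt3 and Tnik, each at 0.99, and 229 of 13913 reached 0.9. Sema6a, a transmembrane semaphorin, averaged 5.94 FPKM in Sham, 15.3 with CPIP and 16.1 with CPIP+EA. For Gdnf the most like were Sec14l1, Trmt5 and Zfp385d (r of 0.98, 0.95 and 0.95), for Nrtn Fgf4, RGD1308134 and St6galnac4 (each 0.95), for Artn Fbxw17, Sephs2 and RGD1306502 (0.95, 0.91 and 0.89), and for Ntf3 Clp1, Hps5 and LOC102553828 (0.93, 0.93 and 0.90). Only 2 to 16 genes reached 0.9 for these 4 members. Sham lies apart from the other 6 libraries in Vgf and Bdnf, so genes with the same separation rank as like them, and the values are a description without a test.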

How the data were processed

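Ipsilateral L4–6 DRGs of 9 rats were profiled by RNA-seq with 50-base reads, which the authors cleaned with SOAPnuke. The authors deposited gene-level FPKM values; the aligner, genome build and strand setting are not given in the sources used here. The deposited table also holds 9 columns of the authors' own comparisons (log2 ratio, P and Q values for 3 comparisons), which were not used. The table holds no counts, so the depth behind each value is not known from it, and read totals stated by the study were not used. The precision rests on 3 libraries per group with 3 rats per group, so p-values measure the spread between these rats only.

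The 17187 genes averaging 0.1 FPKM or more were kept, and their log2(FPKM + 0.5) values were fitted in limma 3.58.1 under R 4.3.3 (empirical Bayes with a trend, 9 libraries in 1 fit, two-sided, Benjamini-Hochberg over all genes tested). Fold changes on this scale understate those of low genes. A gene was called at an adjusted p under 0.01 and at least 1.5-fold, as in the study. The unit was taken as FPKM from the name the authors gave it. The fit was also run on simulated data with values drawn independently for each gene and library. Shifts shared by many genes of a library were not covered by that simulation. The members and gene lists were chosen with earlier results of these data known. Genes named are the 6 members, their receptors and related ligands, genes called or with the smallest p in the other lists, and the 3 transcripts most correlated with each member; further receptors, granins, convertases and Cntf were named after their values were seen. Alternatives were other pseudocounts, filters, scalings, trends, thresholds, a replicate block, a fit of 2 groups and each library left out. Upstream sequences and motif matches are from RefSeq (GRCr8). Some related genes are not reported here and were left out of the gene lists.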

Additional observations from a re-analysis of the deposited data

How the results depend on the processing

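Of the 6 members, only Vgf was called, and the log2 difference of Vgf and of Bdnf from Sham stayed positive in every alternative run. The count of members called in CPIP against Sham was 1, and it was 0 with no filter (Vgf adjusted p 0.0133 by limma) and 0 with a replicate block (0.0199). In CPIP+EA against Sham it was 1, and it was 0 with no filter (0.0118), 0 with a replicate block (0.0162) and 0 with only the 2 groups compared (0.0145). It was 2 in both comparisons at an adjusted p under 0.05 with no fold limit, since Bdnf then passed. With each library left out in turn it ranged from 0 to 1 in both. In CPIP against Sham the Vgf call was lost without Sham replicate 1 (adjusted p 0.0105 by limma), 2 (0.0178) or 3 (0.0136), without CPIP replicate 2 (0.0258) or 3 (0.0237) and without CPIP+EA replicate 2 (0.0105). In CPIP+EA against Sham it was lost without Sham replicate 2 (0.0165) or 3 (0.0120) and without CPIP+EA replicate 1 (0.0102) or 2 (0.0180). The cause was not tested. Correlations of deviations from the group means ran from -0.24 to 0.30 between same-numbered libraries and from -0.22 to 0.28 between differently numbered ones. The replicate numbers are not known to mark pairs, and why the block lost the call was not tested. In CPIP+EA against CPIP 0 members were called in every alternative. Over all genes that comparison had 0 calls, and it had 1 with only the 2 groups compared and 0 to 2 with each library left out (2 without CPIP+EA replicate 1, and 1 without Sham replicate 3, CPIP replicate 3 or CPIP+EA replicate 3).

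Differences near 0 changed sign. For Nrtn in CPIP against Sham the log2 difference was -0.0053 with a pseudocount of 1 and -0.010 with quantile normalization, and from -0.17 to 0.26 with each library left out. For Ntf3 in CPIP+EA against CPIP it was -0.0044 with median centring, -0.018 with neuron-marker centring, and -0.097 to 0.056 with libraries left out. With libraries left out, CPIP+EA against CPIP ranged from -0.12 to 0.036 for Gdnf, -0.36 to 0.028 for Nrtn and -0.14 to 0.075 for Vgf, and CPIP+EA against Sham from -0.22 to 0.055 for Artn and -0.36 to 0.10 for Nrtn. The number of all genes called moved from 61 to between 26 and 122 in CPIP against Sham, and from 83 to between 35 and 226 in CPIP+EA against Sham. For Gdnf and Ntf3 a pseudocount of 0.1 moved the difference of CPIP from Sham to -0.65 and 0.54, and that of CPIP+EA from Sham to -0.76 and 0.57.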
